A study of Rattus norvegicus with 9 samples.

Results

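Respiratory complex I genes of the rat left ventricle were followed across 9 RNA sequencing samples in 3 groups. The genes were the rows of the deposited table whose symbol begins with Nduf and that reached at least 1 FPKM in any of the 9 samples. FPKM, fragments per kilobase of transcript scaled to the library total, is a level per length, so levels of different genes can be set side by side. The rule took 44 of the 45 rows with such a symbol, out of 19294 genes with values. The groups were SHR_OMT, spontaneously hypertensive rats given oxymatrine, an alkaloid of Sophora roots; SHR, the same inbred strain without it; and WKY, Wistar Kyoto rats, the normotensive strain commonly set against SHR. Each group had 3 samples of left ventricle, and SHR_OMT and SHR share the hypertensive strain while WKY differs from both in genotype. The dose, route and duration of oxymatrine and the age and sex of the rats are stated in none of the sources used. The labels do not say that the replicates came from separate animals, so p-values measure only the spread between these samples.

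Complex I, or NADH:ubiquinone oxidoreductase, passes electrons from NADH to ubiquinone and pumps protons across the inner mitochondrial membrane. Its peripheral arm in the matrix holds the flavin and a chain of iron-sulfur clusters, and its membrane arm holds the proton channels. Nuclear genes encode the core subunits of the peripheral arm, the accessory subunits of both arms and the assembly factors, which help to build the enzyme without staying in it; the core subunits of the membrane arm come from mitochondrial DNA and fall outside the rule. Heart muscle, which works on oxidative metabolism, is rich in the enzyme.

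The samples had the markers of ventricular muscle. The summed FPKM of 8 cardiomyocyte markers was 33802 to 37665 in SHR_OMT, 37236 to 39151 in SHR and 35042 to 35350 in WKY. The 4 adipocyte markers with values summed to at most 0.5 FPKM in any sample, with Ucp1 at 0 throughout, and 6 skeletal muscle markers to at most 6.6. A set of 5 atrial markers summed to 976 to 1926 FPKM in SHR_OMT, 975 to 4461 in SHR and 1264 to 2630 in WKY. Nearly all of that sum was Nppa, which ventricular muscle also makes under load and which was at 967 to 4450 FPKM; Sln reached at most 20.0 FPKM, Myl7 9.33, Myl4 6.61 and Bmp10 0.62. The sum of FPKM per library lay between 587526 and 606633. Read counts were not recovered from the FPKM values, so depth is unknown.

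All 44 members passed the mean of 1 FPKM needed for testing; Ndufa10l1 had 1 value under 1 FPKM, in WKY. The 34 subunits had mean levels over the 9 samples of 118 FPKM (Ndufs5) to 1308 FPKM (Ndufb9), with a median of 444. The 7 assembly factors lay far lower, at 12.2 FPKM (Ndufaf7) to 45.3 FPKM (Ndufaf3). No single value of these 7 exceeded 49.3 FPKM (Ndufaf4) and no single value of a subunit fell under 91.7 FPKM (Ndufs5). Among the members, the levels of assembly factors and subunits thus did not overlap in any sample. Ndufab1, the mitochondrial acyl carrier protein, which is also part of complex I, averaged 740 FPKM. Ndufa4, long counted as a complex I subunit and now assigned to cytochrome c oxidase, averaged 1289 FPKM, against 27.4 FPKM for its paralog Ndufa4l2. The copy Ndufa10l1 averaged 57.9 FPKM over all samples, but lay near the floor in every WKY sample.

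**Figure D1:**
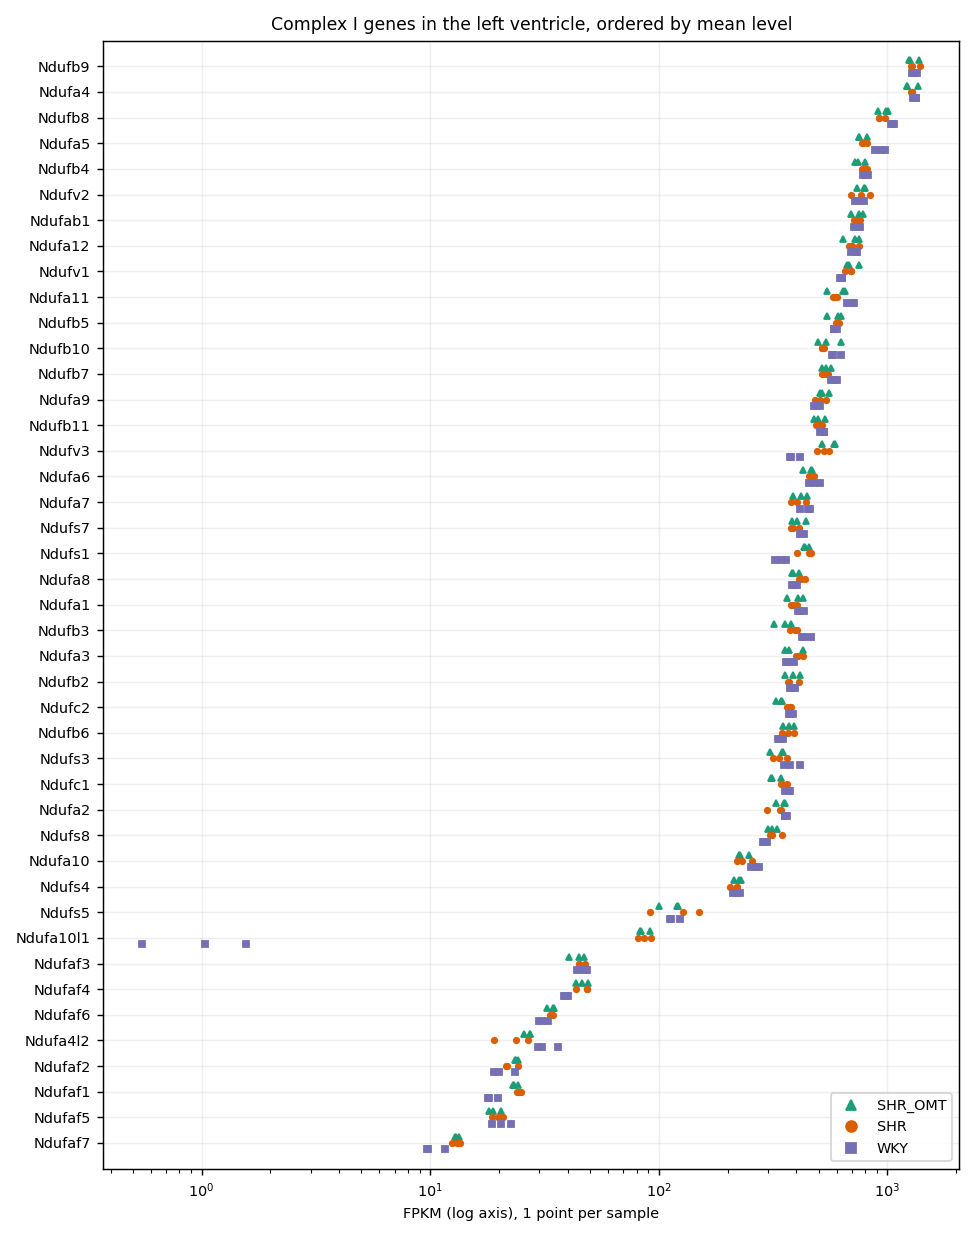
FPKM of 43 members on a log axis, 1 point per sample, ordered by mean level, with SHR_OMT above SHR above WKY within each row. Subunits fill the range above 91.7 FPKM, the 7 assembly factors lie between 9.73 and 49.3 FPKM, and Ndufa10l1 is split between WKY (0.55 to 1.57 FPKM) and the other 6 samples (81.1 to 92.1 FPKM).

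As a whole, the members' share of the summed FPKM differed between groups by less than the spread within SHR_OMT. They made up 3.22 ± 0.137% of the FPKM sum over all genes in SHR_OMT, 3.20 ± 0.083% in SHR and 3.22 ± 0.028% in WKY (SD, n = 3 each). This is a share of FPKM, not of reads. The 34 subunits together summed to 17485 ± 880 FPKM in SHR_OMT, 17520 ± 601 in SHR and 17768 ± 167 in WKY. Parts of the total differed in opposite directions. The 18 accessory subunits of the membrane arm summed to 9112 ± 476 FPKM in SHR_OMT, 9241 ± 230 in SHR and 9634 ± 40.5 in WKY. The 7 assembly factors summed to 204 ± 5.74, 206 ± 0.335 and 187 ± 3.38 FPKM in the same order. These sums are descriptions and were not tested. In whole tissue, fewer cells of a type and less RNA per cell cannot be told apart.

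The rule works on symbols, and 1 symbol was misleading. The row outside the rule is labelled Ndufs6 (NCBI Gene ID 29478) and was listed at 0 in 8 of 9 libraries, with 0.62 FPKM in the remaining SHR library. RefSeq now names that ID Ndufs6-ps1, a pseudogene, and names LOC679739 Ndufs6. LOC679739 was at 193 to 252 FPKM and Ndufs6 is a subunit of the peripheral arm. Likewise LOC100911483 is now Ndufa13, a membrane arm subunit, and LOC690871 is now Ndufaf8, an assembly factor. LOC690871 was at 81.6 to 104 FPKM, above every assembly factor among the members and reaching into the range of the subunit Ndufs5 (91.7 to 150 FPKM). All 44 members kept their symbol in RefSeq. At the threshold itself, the member with the lowest peak was Ndufaf7 at 13.6 FPKM, against 0.62 FPKM for the row left out.

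SHR against WKY compared the hypertensive with the normotensive strain without oxymatrine. In SHR the core subunit Ndufs1, the accessory subunit Ndufv3, the assembly factors Ndufaf1, Ndufaf4 and Ndufaf7 and the copy Ndufa10l1 were higher. Lower in SHR were Ndufa4l2 and the accessory subunits Ndufa5, Ndufa11 and Ndufb8, which were not called under median-of-ratios scaling. Apart from Ndufa10l1, the differences were modest, between −0.47 and 0.43 on the log2(FPKM + 1) scale; adding 1 shrinks the differences of genes at low levels. In all, 7 higher and 4 lower members were called by limma at a Benjamini-Hochberg adjusted p under 0.05 over the 12451 genes whose FPKM averaged 1 or more, where 33.9% of all genes were called, 10.8% as higher and 23.1% as lower. Pooled over both directions, the members' 25.0% is no more than the 33.9% of all genes. Taken by direction, the members had more higher than lower calls, where all genes had more lower than higher calls. Their median log2 difference was −0.02, against −0.08 over all genes tested.

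The split between higher and lower depended on the scaling. With the libraries scaled by the median of ratios, in place of FPKM as deposited, 12 of the 44 members were called higher and 1 lower, where 16.3% of all genes were called higher and 14.4% lower. The 5 additional higher calls were Ndufa8, Ndufaf6, Ndufb6, Ndufs8 and Ndufv1, the 7 others were shared, and Ndufa4l2 was the single lower call that remained. The factors that divided the libraries were 1.0285 to 1.0395 in WKY, 0.96151 to 0.97622 in SHR and 0.97436 to 1.0223 in SHR_OMT. Dividing by them raised SHR relative to WKY. With quantile normalization 7 members were called higher and 5 lower, where 15.1% and 14.6% of all genes were. The authors' deposited table gave 13 of 44 members higher in SHR at a q-value under 0.05 and 0 lower, where 9.35% and 7.03% of its 18377 genes with a q-value were. Those genes include ones that averaged under 1 FPKM, so these shares are not like those over the 12451 genes tested here.

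**Figure D2:**
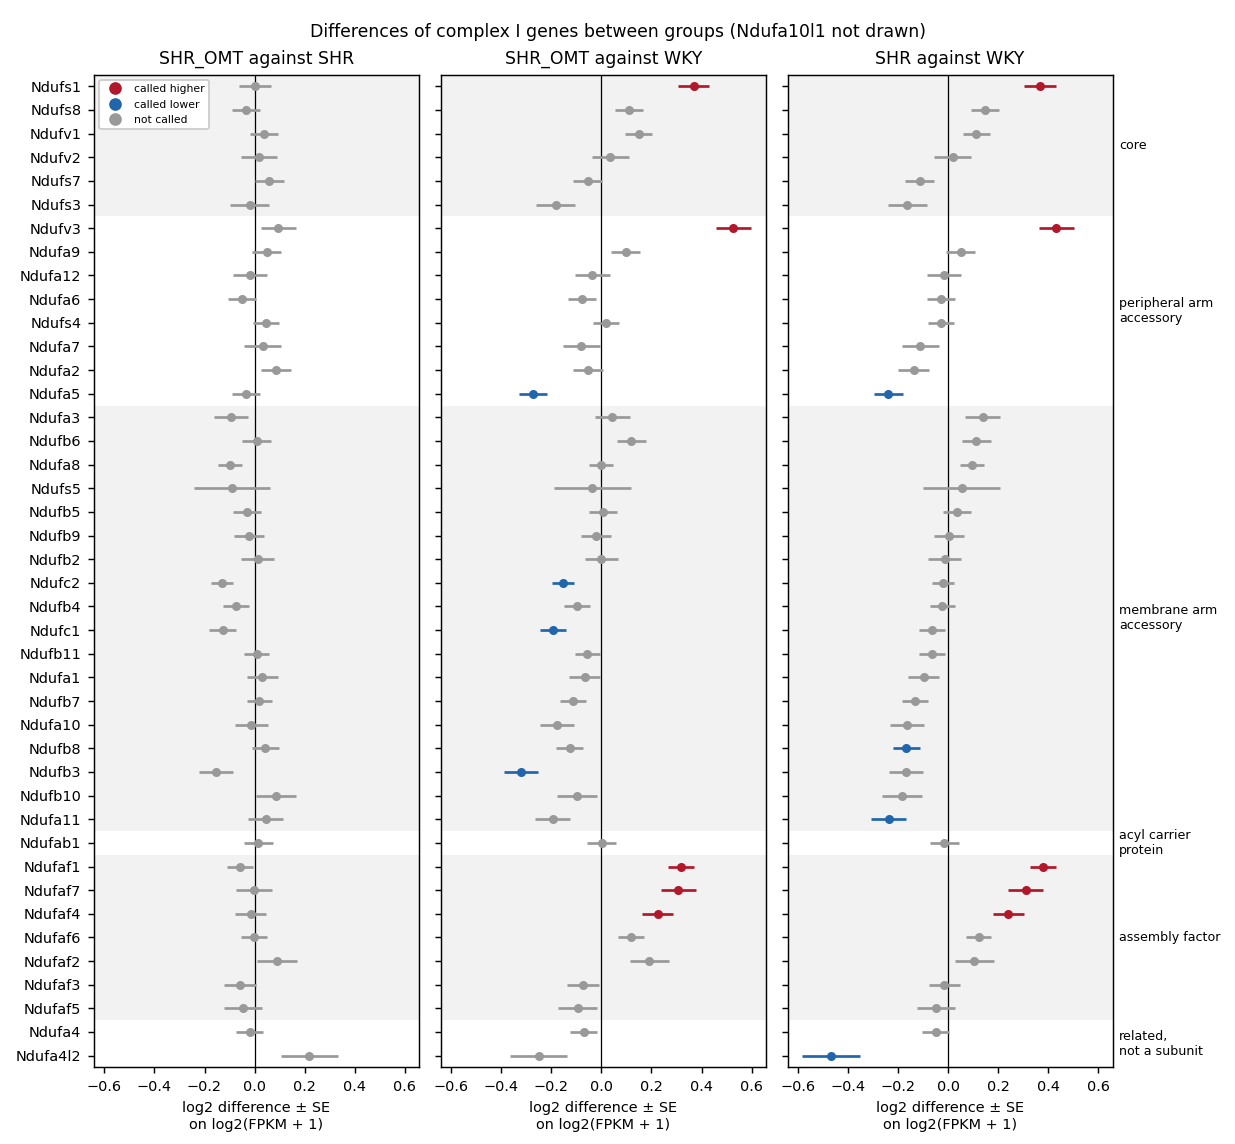
Log2 difference ± SE (limma, on log2(FPKM + 1), 3 samples per group) of 42 members in each comparison, ordered by role; red points were called higher, blue points lower and grey points not called. Ndufa10l1, at 5.44 against WKY in both strain comparisons, is not drawn. No member is called in SHR_OMT against SHR, where every estimate lies between −0.15 and 0.22.

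The core subunits carry the path of electrons. Ndufs1 (NCBI Gene ID 301458), the largest core subunit and the holder of several iron-sulfur clusters, had 433, 434 and 453 FPKM in SHR_OMT, 455, 462 and 404 FPKM in SHR and 323, 341 and 359 FPKM in WKY. Every sample of both SHR groups lay above every WKY sample. Its log2 difference was 0.37 in SHR against WKY (SE 0.0626, limma adjusted p = 0.00225). The call held under all 20 alternative settings.

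A further 5 core subunits were not called, and they did not lean one way. Ndufv1, which binds NADH and the flavin, had 679, 665 and 749 FPKM in SHR_OMT, 694, 691 and 651 FPKM in SHR and 623, 630 and 631 FPKM in WKY. Ndufs8, a carrier of iron-sulfur clusters near the ubiquinone site, had 327, 299 and 314 FPKM in SHR_OMT, 344, 306 and 314 FPKM in SHR and 285, 288 and 297 FPKM in WKY. For both, SHR lay above WKY without overlap, and the limma adjusted p in SHR against WKY was 0.145 for Ndufv1 and 0.0712 for Ndufs8; both passed with median-of-ratios scaling (0.0466 and 0.0198). Ndufs3, a core subunit without a cluster, had 348, 307 and 347 FPKM in SHR_OMT, 364, 334 and 317 FPKM in SHR and 351, 413 and 375 FPKM in WKY. Its estimate in SHR against WKY was −0.16 (limma adjusted p = 0.134), with overlapping groups. Ndufs7, which holds the last cluster before ubiquinone, had 439, 384 and 403 FPKM in SHR_OMT, 411, 386 and 379 FPKM in SHR and 425, 415 and 433 FPKM in WKY. Ndufv2, which carries a cluster beside the flavin, had 793, 734 and 795 FPKM in SHR_OMT, 839, 766 and 693 FPKM in SHR and 723, 790 and 751 FPKM in WKY. The estimates in SHR against WKY were −0.11 for Ndufs7 and 0.02 for Ndufv2.

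Of 8 accessory subunits of the peripheral arm, 1 was higher and 1 lower in SHR (10.8% and 23.1% of all genes). Ndufv3 (64539), bound to the NADH-binding module at the tip of the arm, had 582, 516 and 591 FPKM in SHR_OMT, 555, 493 and 530 FPKM in SHR and 375, 381 and 414 FPKM in WKY. It had the largest positive difference of any subunit in SHR against WKY, 0.43 (SE 0.0701, limma adjusted p = 0.00174), and every WKY sample lay below the other 6. Ndufa5 (25488), which sits beside the ubiquinone-binding module, had 751, 751 and 817 FPKM in SHR_OMT, 816, 775 and 783 FPKM in SHR and 937, 981 and 885 FPKM in WKY. Here every WKY sample lay above the other 6, with a difference in SHR against WKY of −0.24 (SE 0.0566, limma adjusted p = 0.011); under median-of-ratios scaling it was −0.15 (limma adjusted p = 0.125). The other 6 (Ndufa2, Ndufa6, Ndufa7, Ndufa9, Ndufa12 and Ndufs4) had estimates between −0.14 (Ndufa2) and 0.05 (Ndufa9).

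Of 18 accessory subunits of the membrane arm, 0 were higher and 2 lower in SHR (10.8% and 23.1% of all genes), with a median difference of −0.04, against −0.08 over all genes. With median-of-ratios scaling both lower calls were lost, and Ndufa8 (0.19, limma adjusted p = 0.0351) and Ndufb6 (0.20, 0.0445) were called higher. Ndufa11 (301123), at the junction of the arms, had 638, 543 and 651 FPKM in SHR_OMT, 602, 577 and 593 FPKM in SHR and 710, 718 and 664 FPKM in WKY. SHR and SHR_OMT lay below WKY without overlap. The difference in SHR against WKY was −0.24 (SE 0.0705, limma adjusted p = 0.0277), and the call was lost under 6 of 20 alternatives, among them the leaving out of WKY replicate 1 or 2 or of any SHR replicate (limma adjusted p up to 0.0837) and median-of-ratios scaling (0.202). Ndufb8 (293991), of the distal membrane arm, had 990, 908 and 1009 FPKM in SHR_OMT, 979, 923 and 920 FPKM in SHR and 1062, 1035 and 1072 FPKM in WKY. Every WKY sample lay above the other 6, while SHR_OMT and SHR overlapped. The difference in SHR against WKY was −0.17 (SE 0.0543, limma adjusted p = 0.0388), and the call was lost under 10 of 20 alternatives, with adjusted p up to 0.411 (median-of-ratios scaling). Among these were the fits without any one WKY replicate, without SHR replicate 2 or 3 and without SHR_OMT replicate 1 (limma adjusted p between 0.0521 and 0.112). The remaining estimates of the membrane arm ran from −0.18 (Ndufb10) to 0.14 (Ndufa3). LOC100911483, which RefSeq names Ndufa13 and the rule leaves out, averaged 594 ± 31.6 FPKM in SHR_OMT, 625 ± 31.7 in SHR and 746 ± 34.3 in WKY. It was lower in SHR against WKY by the same fit (−0.26, limma adjusted p = 0.0106, lost in 1 of 20 alternatives at 0.105). In the authors' deposited table it was at −0.15, with a q-value of 0.121.

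Of the 7 assembly factors that the rule took, 3 were higher in SHR and 0 lower (10.8% and 23.1% of all genes). Their median difference was 0.12, against −0.08 over all genes. Ndufaf1 (296086), a member of the assembly complex that builds the membrane arm together with Acad9, had 23.0, 23.3 and 24.1 FPKM in SHR_OMT, 24.0, 24.5 and 25.0 FPKM in SHR and 18.0, 19.8 and 18.2 FPKM in WKY. The gap between SHR and WKY exceeded the spread within either, at a difference of 0.38 (SE 0.0523, limma adjusted p = 7.92e-04). Ndufaf7 (298748), a methyltransferase of the mitochondrial matrix, had 13.3, 12.9 and 12.9 FPKM in SHR_OMT, 13.1, 13.6 and 12.5 FPKM in SHR and 9.73, 9.81 and 11.6 FPKM in WKY. WKY replicate 3 came nearest to the other groups without reaching them, and the difference in SHR against WKY was 0.31 (SE 0.0705, limma adjusted p = 0.00913). Ndufaf4 (362495), which acts early with Ndufaf3, had 43.3, 49.3 and 46.1 FPKM in SHR_OMT, 43.3, 48.6 and 48.4 FPKM in SHR and 40.1, 39.4 and 38.6 FPKM in WKY. SHR lay above WKY in all samples, by 0.24 (SE 0.062, limma adjusted p = 0.0159); without SHR replicate 2 or 3 the adjusted p was 0.0549 and 0.0515. Of the 4 not called, Ndufaf6 was at 0.12 and Ndufaf2 at 0.10 on the log2 scale, Ndufaf3 at −0.02 and Ndufaf5 at −0.05. The summed level of the 7 was 204 ± 5.74 FPKM in SHR_OMT, 206 ± 0.335 in SHR and 187 ± 3.38 in WKY. That sum leaves out LOC690871, which RefSeq names Ndufaf8 and which went the other way. It averaged 86.6 ± 5.39 FPKM in SHR_OMT, 86.5 ± 3.04 in SHR and 97.1 ± 7.4 in WKY. Its estimate in SHR against WKY was −0.16 (limma adjusted p = 0.0853), and it was called lower in 1 of 20 alternatives (0.0359).

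Ndufa4 and Ndufa4l2 stood apart from the enzyme itself. Ndufa4l2 (100362331), known in other settings as a gene induced by low oxygen, had 25.8, 27.4 and 27.3 FPKM in SHR_OMT, 26.7, 19.0 and 23.8 FPKM in SHR and 36.2, 29.7 and 30.8 FPKM in WKY. WKY lay above both SHR groups, and the SHR samples were the most scattered. The difference in SHR against WKY was −0.47 (SE 0.114, limma adjusted p = 0.0123), lower in all 20 alternatives with adjusted p between 0.00641 and 0.0484. The authors' deposited table gave −0.37 for Ndufa4l2, with a q-value of 0.0883. Ndufa4 (681024), among the most abundant members, had an estimate of −0.05 in SHR against WKY (limma adjusted p = 0.51), and Ndufab1 one of −0.01 (0.865).

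**Figure D3:**
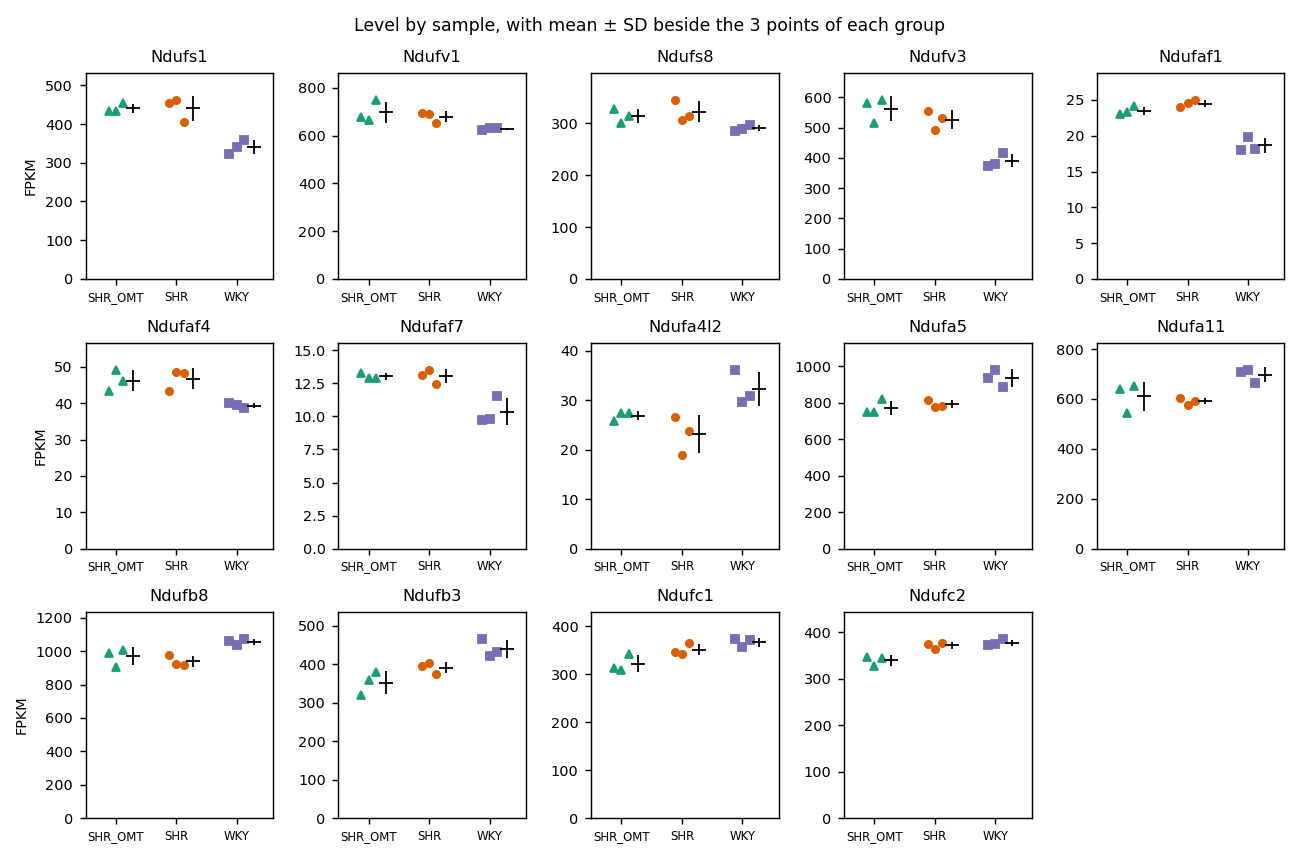
FPKM by sample for 14 members, with SHR_OMT, SHR and WKY from left to right, mean ± SD (n = 3) beside the points and axes from 0. Ndufs1, Ndufv3, Ndufaf1, Ndufaf4 and Ndufaf7 sit higher in both SHR groups than in WKY, Ndufa5, Ndufa11, Ndufb8 and Ndufb3 sit lower, and Ndufc1 and Ndufc2 are lowest in SHR_OMT.

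The most divided member was Ndufa10l1 (316632), a copy of Ndufa10, the membrane arm subunit with a nucleoside kinase fold. It had 83.7, 83.1 and 91.7 FPKM in SHR_OMT, 81.1, 92.1 and 85.8 FPKM in SHR and 0.55, 1.57 and 1.03 FPKM in WKY. The ratio of group means was 82.2 in SHR over WKY and 82.1 in SHR_OMT over WKY. On the log2(FPKM + 1) scale the difference in SHR against WKY was 5.44 (SE 0.149, limma adjusted p = 9.72e-08), the largest of any gene tested. Ndufa10 itself (678759) had 226, 224 and 249 FPKM in SHR_OMT, 256, 219 and 230 FPKM in SHR and 263, 253 and 274 FPKM in WKY. SHR replicate 1 reached into the range of WKY, and the estimate in SHR against WKY was −0.16 (SE 0.0668, limma adjusted p = 0.0852). Without SHR replicate 1 Ndufa10 was called lower (0.0314).

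Because RSEM, named in the submitters' processing notes, divides reads between similar sequences, the pair was also summed. The sum was 310, 307 and 340 FPKM in SHR_OMT, 337, 312 and 316 FPKM in SHR and 263, 255 and 275 FPKM in WKY. The copy made up 27.0 ± 0.0616% of it in SHR_OMT, 26.9 ± 2.74% in SHR and 0.40 ± 0.205% in WKY. Every sample of both SHR groups exceeded every WKY sample, by 21.6% on average in SHR and 20.7% in SHR_OMT. The exact two-sided permutation test gave p = 0.1 for SHR against WKY and for SHR_OMT against WKY, the smallest that 3 against 3 can give, and 0.15 after adjustment over the 3 comparisons. With the sum in place of the 2 rows, limma gave a log2 difference of 0.28 in SHR against WKY (SE 0.0563, adjusted p = 0.00493). How far reads were traded between the copies was not tested. In RefSeq's gene order the neighbours of Ndufa10l1 are Lrrn3 and Dnajb9. Lrrn3 was at 0.53, 0.40 and 0.51 FPKM in SHR_OMT, 0.64, 0.30 and 0.43 FPKM in SHR and 0.05, 0.05 and 0.07 FPKM in WKY, under the limit for testing. Dnajb9, a chaperone of the endoplasmic reticulum, differed by 0.17 in SHR against WKY (limma adjusted p = 0.0713) and by 0.27 in SHR_OMT against WKY (0.0174).

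In a second pair the copies moved against each other within SHR. Ndufs5 (362588), a membrane arm subunit, had 121, 100.5 and 120 FPKM in SHR_OMT, 91.7, 128 and 150.2 FPKM in SHR and 123, 112 and 113 FPKM in WKY. LOC100363268, which RefSeq names Ndufs5-ps2, a pseudogene, had 196, 243 and 275 FPKM in SHR_OMT, 299, 256 and 226 FPKM in SHR and 277, 223 and 252 FPKM in WKY. Within SHR the sample lowest for Ndufs5 was highest for the pseudogene, and their sum was nearly level, at 391, 384 and 377 FPKM. The sum varied by 1.87% of its mean in SHR, where Ndufs5 alone varied by 24.0% and the pseudogene by 14.1%. The other groups did not show this: the sum varied by 11.2% in SHR_OMT and 8.93% in WKY, more than Ndufs5 alone (10.1% and 5.32%), and WKY replicate 1 was highest for both rows. The summed row had an estimate of 0.07 in SHR against WKY (SE 0.0853, limma adjusted p = 0.573), against 0.05 (SE 0.153) for Ndufs5 alone.

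**Figure D4:**
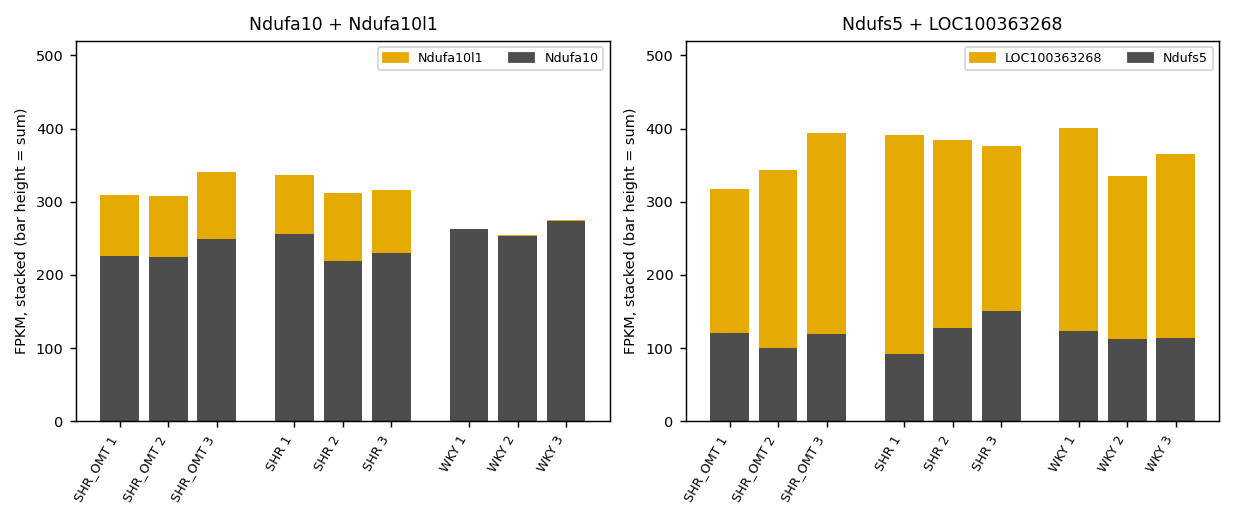
Stacked FPKM of each pair by sample, with SHR_OMT, SHR and WKY from left to right; the height of a bar is the sum. In WKY the Ndufa10 bars carry almost no Ndufa10l1 (0.55 to 1.57 FPKM), and in SHR the sum of Ndufs5 and LOC100363268 stays between 377 and 391 FPKM while the parts shift.

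Promoter sequences of 9 called members, 5 higher and 4 lower in SHR, are shown because genes of the respiratory chain are textbook targets of the factors NRF1, GABPA (also named NRF-2) and YY1. RefSeq promoter entries of build GRCr8, 300 bases each and reaching just past the annotated start of the gene, existed for 39 of 44 members; Ndufa10l1 was not among them. The motifs searched on both strands were GCGCANGCG for NRF1, CCGGAAG for GABPA and ATGGCGGC for YY1; matches of different motifs do not overlap in the runs shown, and a promoter counts once however many matches it holds. Motif matches are in capitals below, each run reading 5′ to 3′ on the strand of the gene; Ndufs1 holds its matches in reverse complement, and Ndufaf7 and Ndufa4l2 hold none.
Ndufs1, chr9:72073556-72073855, minus strand: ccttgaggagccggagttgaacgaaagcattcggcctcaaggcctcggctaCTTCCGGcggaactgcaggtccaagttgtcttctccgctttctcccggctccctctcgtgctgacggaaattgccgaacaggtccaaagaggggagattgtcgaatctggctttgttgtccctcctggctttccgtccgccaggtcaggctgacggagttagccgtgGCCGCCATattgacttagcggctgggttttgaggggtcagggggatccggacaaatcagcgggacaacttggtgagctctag
Ndufv3, chr20:9613536-9613835, plus strand: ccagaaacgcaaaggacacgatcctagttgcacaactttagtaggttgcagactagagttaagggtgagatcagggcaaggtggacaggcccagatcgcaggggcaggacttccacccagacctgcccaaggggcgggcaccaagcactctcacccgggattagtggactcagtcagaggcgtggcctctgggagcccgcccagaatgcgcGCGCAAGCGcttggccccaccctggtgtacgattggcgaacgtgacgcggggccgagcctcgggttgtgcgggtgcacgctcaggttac
Ndufaf1, chr3:127103971-127104270, minus strand: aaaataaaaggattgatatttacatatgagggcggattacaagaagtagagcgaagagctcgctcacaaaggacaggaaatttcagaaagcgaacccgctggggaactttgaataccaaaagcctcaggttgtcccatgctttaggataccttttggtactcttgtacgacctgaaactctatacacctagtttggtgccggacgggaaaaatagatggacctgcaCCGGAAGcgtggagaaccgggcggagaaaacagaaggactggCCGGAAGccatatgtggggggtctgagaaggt
Ndufaf4, chr5:43401545-43401844, plus strand: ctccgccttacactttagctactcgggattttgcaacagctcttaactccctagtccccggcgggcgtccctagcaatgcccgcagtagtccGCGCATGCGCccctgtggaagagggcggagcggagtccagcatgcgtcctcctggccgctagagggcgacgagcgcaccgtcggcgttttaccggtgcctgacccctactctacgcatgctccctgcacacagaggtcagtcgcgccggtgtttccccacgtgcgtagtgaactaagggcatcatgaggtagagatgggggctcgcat
Ndufaf7, chr6:21871916-21872215, minus strand: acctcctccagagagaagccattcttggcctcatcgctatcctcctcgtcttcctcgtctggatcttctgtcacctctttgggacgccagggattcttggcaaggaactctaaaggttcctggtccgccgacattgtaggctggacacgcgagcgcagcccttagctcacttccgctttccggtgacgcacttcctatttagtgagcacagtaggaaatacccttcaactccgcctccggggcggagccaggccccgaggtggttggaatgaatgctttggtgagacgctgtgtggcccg
Ndufa5, chr4:53971186-53971485, minus strand: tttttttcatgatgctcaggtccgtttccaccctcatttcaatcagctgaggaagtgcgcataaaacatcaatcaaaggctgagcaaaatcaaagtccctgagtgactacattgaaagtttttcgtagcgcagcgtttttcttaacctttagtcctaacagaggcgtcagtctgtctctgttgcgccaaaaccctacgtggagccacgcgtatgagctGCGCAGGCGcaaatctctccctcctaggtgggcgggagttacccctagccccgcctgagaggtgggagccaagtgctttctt
Ndufa11, chr9:1637364-1637663, plus strand: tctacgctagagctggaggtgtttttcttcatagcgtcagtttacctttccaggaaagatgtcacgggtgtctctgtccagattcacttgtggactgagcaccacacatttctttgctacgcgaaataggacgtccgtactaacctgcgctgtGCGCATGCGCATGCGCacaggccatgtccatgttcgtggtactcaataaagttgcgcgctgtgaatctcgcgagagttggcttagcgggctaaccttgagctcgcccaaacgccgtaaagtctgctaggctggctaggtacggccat
Ndufb8, chr1:253362887-253363186, minus strand: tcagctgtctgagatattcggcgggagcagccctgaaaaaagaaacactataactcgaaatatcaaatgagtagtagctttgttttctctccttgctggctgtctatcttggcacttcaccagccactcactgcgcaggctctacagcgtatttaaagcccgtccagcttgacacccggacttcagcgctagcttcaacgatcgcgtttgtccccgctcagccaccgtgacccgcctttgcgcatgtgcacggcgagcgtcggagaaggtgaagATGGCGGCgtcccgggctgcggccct
Ndufa4l2, chr7:65241919-65242218, plus strand: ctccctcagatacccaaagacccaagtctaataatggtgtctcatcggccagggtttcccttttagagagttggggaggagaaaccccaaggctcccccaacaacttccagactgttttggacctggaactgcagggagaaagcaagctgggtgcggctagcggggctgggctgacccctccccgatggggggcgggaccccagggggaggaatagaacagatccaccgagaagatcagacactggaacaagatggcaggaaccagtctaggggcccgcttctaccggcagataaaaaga

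Of these, Ndufs1 had a GABPA and a YY1 match, Ndufv3, Ndufaf4, Ndufa5 and Ndufa11 an NRF1 match, Ndufaf1 GABPA matches and Ndufb8 a YY1 match; Ndufaf7 and Ndufa4l2 had no match to these motifs. Members called higher and members called lower both held NRF1 and YY1 matches. Over the members with an entry, the NRF1 motif was found in 10 of 39 promoters (25.6%), against 5.80% of 33469 promoters. The GABPA motif was in 7 (17.9%, against 8.75%) and the YY1 motif in 8 (20.5%, against 2.53%). The 33469 promoters were not limited to expressed genes or matched for base content. Whether the difference is particular to complex I was not tested. The motif TCAAGGTCA of the estrogen-related receptors was in 0 of 39, against 0.433% of all. At so low a share, 39 promoters are too few to tell an absence from the background. A match is a run of letters in this window and not a measured binding site.

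SHR_OMT against SHR asked what oxymatrine changed within the hypertensive strain. No complex I gene was called: 0 of 44 members passed, where 0.241% of the 12451 genes tested, 30 in all, were called. The count was also 0 in every alternative run. It was 0 at a q-value under 0.05 in the authors' deposited table, where 0.414% of 18340 genes were higher and 0.474% lower. The lowest q-value of a member there was 0.333. At an unadjusted p under 0.05 there were 2 of 44 members, a smaller share than the 1512 of 12451 genes tested. Both were of the membrane arm. Ndufc2 (293130) had 347, 326 and 343 FPKM in SHR_OMT, 374, 363 and 377 FPKM in SHR and 373, 374 and 385 FPKM in WKY. Its SHR_OMT samples lay below the other 6, with a log2 difference in SHR_OMT against SHR of −0.13 (SE 0.0434, limma adjusted p = 0.291). Ndufc1 (689938) had 313, 310 and 342 FPKM in SHR_OMT, 346, 343 and 365 FPKM in SHR and 373, 356 and 372 FPKM in WKY. SHR_OMT replicate 3 came within reach of the SHR range without entering it, and the difference was −0.13 (SE 0.0522, limma adjusted p = 0.371).

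The intervals show how large a difference these samples leave room for. Over the 43 members other than Ndufa10l1, the 95% intervals of SHR_OMT against SHR all lay within 0.5 on the log2 scale in either direction, from −0.43 at the lowest (Ndufs5) to 0.47 at the highest (Ndufa4l2). Among members that differed between the strains the intervals were of unequal width. In SHR_OMT against SHR, Ndufs1 had an interval of −0.14 to 0.14, Ndufaf1 one of −0.18 to 0.06 and Ndufv3 one of −0.06 to 0.25. Wider were those of Ndufa4l2, from −0.04 to 0.47, and of Ndufa10l1, from −0.34 to 0.33 around an estimate of 0.00. The median of the members was 0.00, against 0.04 over all genes tested.

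SHR_OMT against WKY set the treated hypertensive rats against the normotensive strain; it shares the WKY samples with SHR against WKY and the SHR_OMT samples with SHR_OMT against SHR. Of 44 members 7 were higher and 4 lower, 25.0%, where 24.9% of all genes were called, 10.2% as higher and 14.6% as lower. Higher in SHR_OMT were, among others, Ndufa10l1 (log2 difference 5.44), Ndufv3 (0.53), Ndufs1 (0.37), Ndufaf1 (0.32), Ndufaf7 (0.31) and Ndufaf4 (0.22). Lower were Ndufb3, Ndufa5, Ndufc1 and Ndufc2. Scaled by the median of ratios, the libraries gave 7 and 2, where 13.3% of all genes were called higher and 11.1% lower, and with quantile normalization 8 and 4, where 12.5% and 12.2% were.

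The lower calls in this comparison were all accessory subunits, 3 of them in the membrane arm. These 3 are 16.7% of the 18 accessory subunits of that arm, near the 14.6% of all genes called lower. Ndufb3 (301427), of the distal membrane arm, had 320, 358 and 379 FPKM in SHR_OMT, 395, 403 and 375 FPKM in SHR and 465, 422 and 432 FPKM in WKY. SHR lay between, overlapping SHR_OMT but not WKY. The difference was −0.32 in SHR_OMT against WKY (SE 0.0686, limma adjusted p = 0.00942) and held in all 20 alternatives; in SHR against WKY it was −0.17 (limma adjusted p = 0.086, and 0.0498 without SHR_OMT replicate 1). Ndufa5 differed by −0.27 (SE 0.0566, limma adjusted p = 0.008). Ndufc1 and Ndufc2 differed by −0.19 and −0.15 (limma adjusted p = 0.0259 and 0.0297), and these calls were lost under 5 and 8 of 20 alternatives, with adjusted p up to 0.11 and 0.151. Without WKY replicate 1 or 3, or without SHR_OMT replicate 2, neither was called; Ndufc1 was also lost without SHR_OMT replicate 1 and Ndufc2 without SHR_OMT replicate 3. Of the higher calls, Ndufaf4 was lost under 5 of 20 alternatives, those without any one WKY replicate or without SHR_OMT replicate 2 or 3 (limma adjusted p up to 0.0831), and Ndufaf7 without WKY replicate 1 (0.0522).

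The rest of the respiratory chain gives a scale for these differences; over all genes 10.8% were higher and 23.1% lower in SHR, 33.9% together. In SHR against WKY, 3 of 7 further assembly factors of complex I with other symbols were higher and 0 lower. Acad9, the partner of Ndufaf1, averaged 49.4 ± 1.63 FPKM in SHR_OMT, 48.4 ± 2.40 in SHR and 35.6 ± 0.0702 in WKY, a difference in SHR against WKY of 0.43 (SE 0.049, limma adjusted p = 2.77e-04). Tmem70 (0.28) and Tmem186 (0.24), which also take part in assembly, were higher too. Of complex II genes 1 of 7 was higher (Sdha, the flavoprotein subunit, 0.20), of complex III 3 of 14 (Uqcc1, an assembly factor, 0.41; Uqcrfs1, the Rieske iron-sulfur protein, 0.18; Uqcrc2, 0.18), of complex IV 1 of 16 higher (Cox6a1, 0.17) and 1 lower (Cox7b, −0.16), and of complex V 0 of 17 were called. Proteins of the mitochondrial ribosome had 15 higher and 9 lower of 74, 32.4% together, close to the share over all genes. Medians were 0.05 for the further assembly factors, 0.12 for complex II, 0.07 for complex III, −0.07 for complex IV, −0.04 for complex V and 0.03 for the ribosome, against −0.02 for the complex I subunits and −0.08 for all genes. In SHR_OMT against SHR 0 genes of any of these lists were called.

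**Figure D5:**
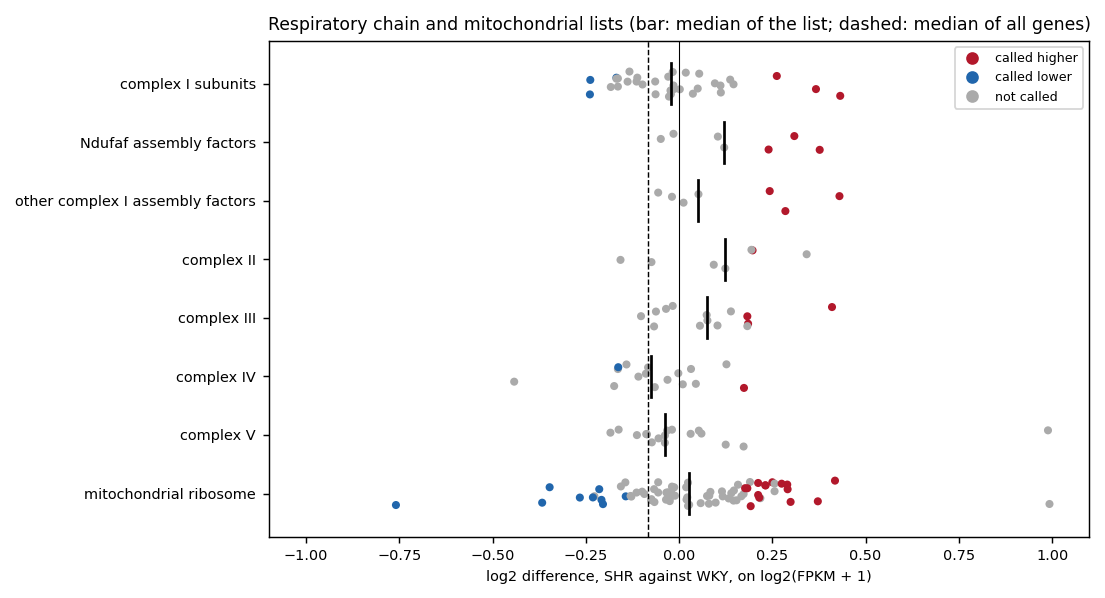
Log2 differences in SHR against WKY for complex I subunits, assembly factors, the other respiratory complexes and the mitochondrial ribosome, 1 point per gene, red for called higher and blue for called lower. Black bars are list medians, between −0.07 (complex IV) and 0.12 (complex II and the Ndufaf factors), and the dashed line is the median of all genes at −0.08.

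Of 14 regulators of mitochondrial genes, 5 were higher and 1 lower in SHR (10.8% and 23.1% of all genes). The higher ones were Esrra, an estrogen-related receptor that drives oxidative genes in heart muscle, with a difference in SHR against WKY of 0.42 (limma adjusted p = 2.48e-04), its relatives Esrrg (0.35) and Esrrb (0.38), the coactivator Ppargc1b (0.31), and Tfb2m, a transcription factor of the mitochondrial genome (0.42). The lower one was Nrf1, the factor of the NRF1 motif (−0.20, limma adjusted p = 0.0305). Markers of some cell types also moved with the strain, where 33.9% of all genes were called. Among 6 fibroblast markers 1 was lower and 0 higher in SHR, and the 1 lymphocyte marker tested was lower. Of smooth muscle and pericyte, macrophage and erythrocyte markers, 0 of 6, 0 of 6 and 0 of 4 were called. Of 8 endothelial markers 7 were lower in SHR, with summed levels of 562 to 580 FPKM in SHR_OMT, 501 to 557 in SHR and 689 to 809 in WKY. Of 8 cardiomyocyte markers Ryr2 (0.69), Actc1 (0.47) and Myh6 (0.36) were higher and 0 lower in SHR. The other 5 had estimates of −0.24 (Tnnt2, limma adjusted p = 0.0604), 0.00 (Tnni3), 0.01 (Pln), 0.12 (Ttn) and 0.12 (Myl2), and Tnnt2 was lower in SHR_OMT against WKY (−0.32, limma adjusted p = 0.0282). Of 4 atrial markers tested 1 was lower in SHR, Myl7 (−1.52), whose level was 0.71 to 9.33 FPKM; Sln was at −1.099, Nppa at 0.41 and Myl4 at 0.33, none of them called. The part of these shifts in the differences of complex I genes was not tested.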

How the data were processed

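Libraries had been prepared from total RNA of the left ventricle (KAPA RNA HyperPrep, BGISEQ-500), per the labels. The submitters' processing notes list RSEM 1.3.1, Bowtie2 and DESeq2 1.4.5 with the build Rnor_6.0, in no stated order. The table deposited by the authors gives FPKM per gene and sample, per the file headers, and their own deposited log2 ratios and q-values, named as theirs in the text. Of 22864 rows, 3570 had no values.

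The 12451 genes whose FPKM averaged 1 or more were fitted together on log2(FPKM + 1), using limma 3.58.1 (R 4.3.3) with 3 group means, 6 residual degrees of freedom and a mean-variance trend. Tests were two-sided with Benjamini-Hochberg adjustment over all genes and a threshold of 0.05. No count test was run: of 1611 ratios of low values to a gene's lowest, 35.5% were whole within 0.1, against 20.0% by even spacing, so reads were not recovered. On simulated data with 12451 genes, 87.9%, 83.8% and 97.3% of 1.5-, 2- and 4-fold changes were found for SHR against WKY, with 10 false calls, and 75.8%, 93.1% and 98.5% for SHR_OMT against SHR, with 8. The differences of all members but Ndufa10l1 were smaller than 1.5-fold, so these rates do not cover changes of their size. Far fewer genes were changed in the simulation than were called in SHR against WKY.

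The members, their roles and the other gene lists were chosen with earlier results of these data known. Given by sample were Ndufa10, Ndufa10l1, Ndufa4l2, core subunits and called members; 1 gene that the counts include is not reported here. The motif spellings, and Ndufs5 with its pseudogene, were chosen after the data were seen. Gene names and promoters came from RefSeq tables of GRCr8, whose gene coordinates are not given because the authors' build differs. Alternatives were a pseudocount of 0.1, no filter, a mean FPKM of at least 5, other scalings, separate fits of each pair of groups, weighted samples, no variance trend, a replicate block, each sample left out, and summed copies. Figures were drawn with matplotlib 3.10.9.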

Additional observations from a re-analysis of the deposited data

How the results depend on the processing

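Counts of called members changed by more than 1.5 times with median-of-ratios scaling, which gave 12 higher and 1 lower in SHR against WKY and 2 lower in SHR_OMT against WKY, in place of 7, 4 and 4. With 1 sample left out in turn, members called lower ran from 2 to 5 in SHR against WKY (2 without WKY replicate 1 or 2 or without SHR replicate 2 or 3) and from 2 to 4 in SHR_OMT against WKY (2 without WKY replicate 1 or 3 or without SHR_OMT replicate 2), and members called higher from 6 to 7 in both. Over all genes, SHR_OMT against SHR had 30 calls, but 12 with no filter on low values, 19 with only the groups compared, 17 with no variance trend and 6 to 33 with 1 sample left out (6 without SHR_OMT replicate 1). SHR_OMT against WKY had 3095, and 1893 to 3043 with 1 sample left out. Same-numbered samples did not deviate together (correlations −0.109 to 0.0276); with the replicate number as a block the calls over all genes were 3550 in SHR against WKY, 14 in SHR_OMT against SHR and 2473 in SHR_OMT against WKY, and the members' counts 7 higher and 3 lower, 0 and 0, and 7 and 3. The sum of Ndufa10 and Ndufa10l1 differed by −2.38 FPKM in SHR_OMT against SHR, and by −13.02 to 5.21 with 1 sample left out (2.36, 3.51 and 5.21 without SHR_OMT replicate 1, SHR_OMT replicate 2 or SHR replicate 1). Of the named genes' values under alternatives, 1149 kept their side of the threshold, 38 lost a call, 7 gained one and 0 changed the sign of a call. With the rows that RefSeq names Ndufs6, Ndufa13 and Ndufaf8 counted in, chosen after seeing the data, the lower counts were 5 and 5. Depth is unknown, so precision rests on 3 samples a group.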

Other observations

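Outside the rule and the tests, LOC684509, which RefSeq names Ndufa3-ps3, a pseudogene, was listed at no more than 0.06 FPKM in SHR_OMT, at 0.54, 1.22 and 0.59 FPKM in SHR and at no more than 0.03 FPKM in WKY. The row reached 1 FPKM in a single library and its mean was under the limit for testing.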
